A study of Mus musculus with 32 samples.

Results

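The p53 family and p53 target genes were examined in neurosphere cultures of brain tumours that lack p53. The set was a list of 39 genes, made of the p53 family, the MDM regulators of p53 and published p53 targets. A listed gene was measured if a probe set of the Affymetrix Mouse Gene 1.0 ST array carried its symbol alone, which held for 35 of the 39 genes, out of 19938 genes measured in all. Trp53 itself, Bax, Gdf15 and Fdxr had no such probe set and were not analysed here, so the array did not check the Trp53 label.

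The 32 arrays, 1 per culture, fell into 8 groups. HRAS+MYC cells (n = 7) came from tumours like human atypical teratoid/rhabdoid tumour. MYC then HRAS cells (n = 2) came from secondary tumours, raised after HRAS was added to cells of a MYC primitive neuroectodermal tumour (PNET). HRAS then MYC cells (n = 2) came from secondary tumours of HRAS glioma cells given MYC. HRAS+Bmi1 (n = 2) and HRAS cells (n = 5) came from gliomas. MYC+Ezh2 (n = 5), MYC+Bmi1 (n = 3) and MYC cells (n = 6) came from PNETs. All groups shared the strain B6;129-Trp53tm1Brd, a mixed background with a disrupted Trp53 gene, and no array of p53-wild-type cells was analysed here. In every group the parent cells were neurosphere cells cultured from the lateral ventricle wall after birth, given the oncogenes by overexpression and transplanted into the brain. Cells of the tumours that carried the transgene were taken by flow cytometry and cultured again as neurospheres. The purity of the sort was not tested here. The promoter of the transgenes and the sex and age of the mice are not stated in the labels. Whether the replicates of a group are separate tumours is not stated either, and p-values here reflect the spread between cultures, which may be technical.

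p53 is a transcription factor that is stabilised by DNA damage and by oncogene signalling, and it then switches on genes of cell cycle arrest, apoptosis, DNA repair and metabolism. MDM2 is a ubiquitin ligase that degrades p53 and is itself a p53 target, and MDM4 binds p53 and blocks its activity. Many p53 targets also answer to other factors, among them p63 and p73, FOXO factors, ATF4, CREB and AP-1. In cells with no p53, a difference in a target between 2 groups is therefore a difference measured in the absence of p53.

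Values are RMA log2 levels, in which a difference of 1 is a doubling. Differences are the first group named minus the second, ± SE, from limma on all 32 arrays. A gene passed at an adjusted p (Benjamini-Hochberg over the 19938 genes) under 0.05. The comparisons of HRAS, HRAS+MYC and MYC then HRAS cells with MYC cells share the same 6 MYC arrays, so their values stand side by side and are not independent. The microglia and macrophage list averaged 5.09 to 5.49 in HRAS+MYC, 4.77 to 5.43 in HRAS and 4.72 to 4.88 in MYC arrays. Over all 32 arrays Aif1 ran from 4.13 to 4.67, Csf1r from 4.18 to 4.89 and Ptprc from 4.23 to 5.61, while the lysosomal gene Cd68 ran from 5.39 to 11.21. The other 7 markers of the list stayed at or under 6.09 on every array. The endothelial and pericyte list averaged 4.83 to 5.14 in HRAS+MYC, 4.97 to 5.47 in HRAS and 4.74 to 4.99 in MYC arrays. Within that list Pecam1 ran from 4.75 to 7.50 and Pdgfrb from 4.76 to 7.71 over all 32 arrays. The highest value of its other markers was 6.09, that of Kdr. Some arrays stood apart from their group in neural stem markers, the lineage that the labels name. That list averaged 9.69 in HRAS replicate 3, against 7.72 to 8.11 in the other HRAS arrays. It averaged 7.09 and 7.97 in MYC replicates 4 and 5, against 10.05 to 10.48 in the other MYC arrays. Other groups were also uneven in this list. It averaged 9.28 and 7.75 in the MYC then HRAS arrays, 9.62, 8.10 and 8.79 in MYC+Bmi1, and 8.19 to 9.80 in MYC+Ezh2. Calls that changed without HRAS replicate 3, or without MYC replicates 4 and 5 together, are named beside the gene. The mouse Myc probe set averaged 11.36 in HRAS cells, which were not given MYC, against 7.00 in MYC cells. The labels do not say whether the MYC transgene matches this probe set. In bulk RNA, fewer cells with a transcript and less transcript per cell cannot be told apart.

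Promoter sequences of the members were searched because members moved in opposite directions between oncogenes. RefSeq gene starts of mouse build GRCm38.p6 were found for 26 of the 35 members, in 36 windows of 250 bases upstream of a start. A p53 half-site was present in 22.22% of the member windows and in 7.13% of 32851 windows of the same length. Most members were listed because they are published p53 targets, and some gave several windows, so these shares are not a test. A cyclic AMP response element (CRE, TGACGTCA) was found in 3 member windows, 8.33%, and in 1.55% of all windows. The E-box CACGTG, a sequence that MYC can bind, was found in 8.33% of member windows against 6.02% of all. The AP-1 motif, TGACTCA or TGAGTCA, was found in 5.56% of member windows against 4.46% of all. Both strands were searched, and these motifs do not overlap each other in the windows printed here. A match is a description of letters, not evidence of binding. A p53 half-site also stood in a window of each of Aen, Ccng1, Ckap2, Ei24 and Polk, which are not printed here. The AP-1 motif stood in a window of Mdm4 and of Fas. The windows that follow are those of named members, chosen after the search, and capitals mark the motif. In Gadd45a, Mdm2 and Sesn1 the capitals are p53 half-sites, -40, -186 and -173 bases from the start, and in Btg2 and Plk2 they are CREs, -166 and -62 bases from the start. The known p53 response elements of Gadd45a and Mdm2 lie within their introns, outside these windows.
Gadd45a (chr6:67037408-67037657, minus strand): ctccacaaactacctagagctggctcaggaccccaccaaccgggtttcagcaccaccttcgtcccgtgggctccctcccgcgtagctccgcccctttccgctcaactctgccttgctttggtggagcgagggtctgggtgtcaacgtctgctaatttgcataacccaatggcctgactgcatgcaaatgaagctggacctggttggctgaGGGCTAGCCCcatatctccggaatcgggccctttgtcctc
Mdm2 (chr10:117710759-117711008, minus strand): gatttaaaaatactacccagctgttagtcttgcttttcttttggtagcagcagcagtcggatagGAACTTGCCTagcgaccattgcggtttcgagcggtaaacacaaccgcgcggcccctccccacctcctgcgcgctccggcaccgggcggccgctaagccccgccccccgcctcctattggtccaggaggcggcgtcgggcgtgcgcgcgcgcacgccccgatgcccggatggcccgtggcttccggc
Sesn1 (chr10:41887189-41887438, plus strand): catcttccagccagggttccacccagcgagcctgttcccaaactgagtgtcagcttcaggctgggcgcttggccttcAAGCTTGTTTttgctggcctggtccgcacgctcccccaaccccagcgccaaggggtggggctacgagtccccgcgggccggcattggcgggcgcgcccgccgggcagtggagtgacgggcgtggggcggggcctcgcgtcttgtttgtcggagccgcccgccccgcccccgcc
Btg2 (chr1:134079156-134079405, minus strand): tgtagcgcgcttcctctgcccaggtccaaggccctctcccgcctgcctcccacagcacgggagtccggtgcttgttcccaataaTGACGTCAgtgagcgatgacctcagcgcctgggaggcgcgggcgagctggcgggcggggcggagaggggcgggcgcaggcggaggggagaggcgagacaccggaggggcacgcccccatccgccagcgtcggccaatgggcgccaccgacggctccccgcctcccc
Plk2 (chr13:110394794-110395043, plus strand): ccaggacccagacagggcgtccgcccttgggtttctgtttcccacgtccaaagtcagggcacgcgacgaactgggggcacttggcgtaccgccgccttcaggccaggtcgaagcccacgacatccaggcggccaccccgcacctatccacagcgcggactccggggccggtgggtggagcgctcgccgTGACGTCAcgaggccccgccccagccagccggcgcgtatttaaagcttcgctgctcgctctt

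Across the 8 groups, 27 of the 35 members varied by an F test in limma, a share of 77.1% against 49.7% of all 19938 genes. Most members were among the better expressed genes. Among the 9969 genes above the median level, 26 of 30 members (86.7%) and 76.0% of all genes passed. The members that varied most were Perp, with group means spanning 4.24 log2 units, Gadd45a (3.55), Plk3 (3.44), Eda2r (3.24), Plk2 (3.03) and Tnfrsf10b (3.03). Sesn1 spanned 2.59, Trp53inp2 2.50, Btg2 2.44 and Phlda3 2.23. The median span over all genes was 0.650. The 8 members that did not pass were Trp63, Trp73, Fas, Ckap2, Ddb2, Rrm2b, Sesn2 and Steap3. Zmat3 lay at the threshold (adjusted p 0.0495) and did not pass in 23 of the 32 fits that left out 1 array, where it reached 0.114. Ccng1 did not pass without HRAS replicate 1, 4 or 5, at adjusted p 0.0504 to 0.0700. Rrm2b passed without MYC replicate 4 (adjusted p 0.0157).

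**Figure D1:**
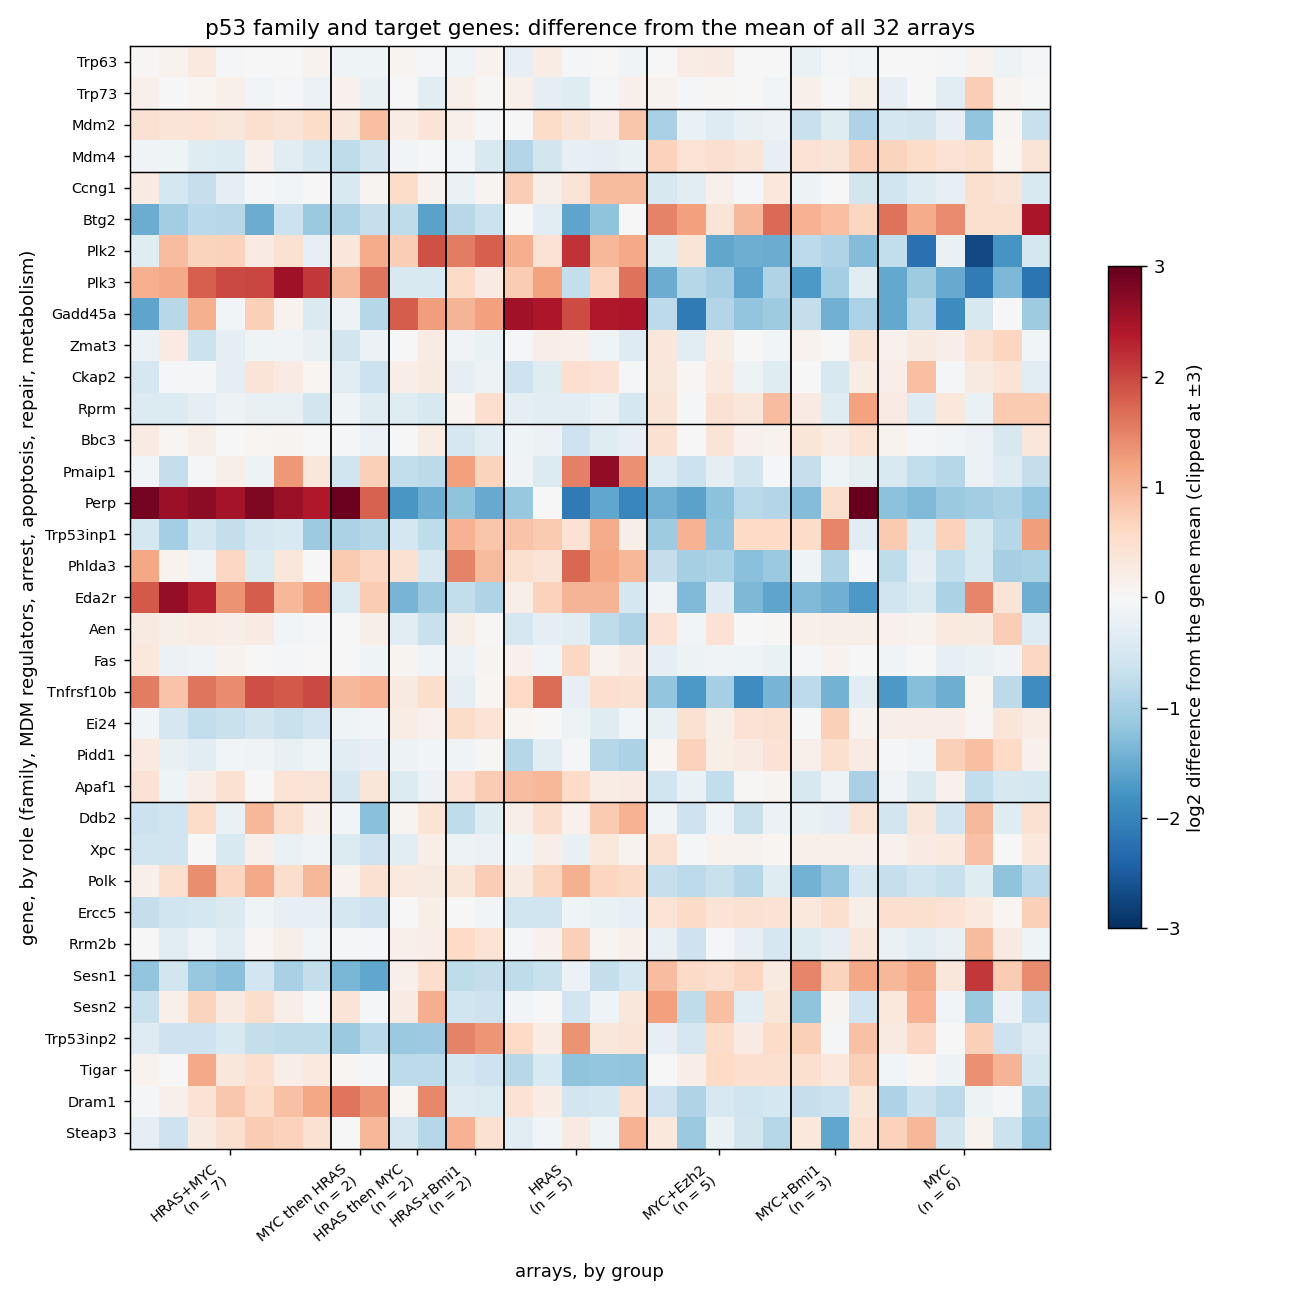
Log2 level of the 35 measured members (rows, by role) on each of the 32 arrays (columns, by group), as the difference from the mean of the gene over all arrays, with the colour scale clipped at 3 log2 units either way. Perp and Tnfrsf10b are high in the 7 HRAS+MYC arrays, Gadd45a in the 5 HRAS arrays, and Btg2 and Sesn1 in most of the 14 arrays without HRAS.

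The p53 relatives Trp63 and Trp73, which share the DNA-binding domain of p53, did not differ detectably between groups. Their means over all arrays, 5.95 and 5.63, lay below the median of gene means (6.361). Whether either transcript was present was not tested. Trp63 was 5.92 to 6.24 (median 5.99) in HRAS+MYC arrays, 5.81 and 5.83 in MYC then HRAS, 6.04 and 5.89 in HRAS then MYC, 5.83 and 6.05 in HRAS+Bmi1, and 5.70, 6.17, 5.90, 5.94 and 5.85 in HRAS arrays. Trp63 without HRAS was 5.97, 6.18, 6.19, 5.97 and 5.94 in MYC+Ezh2, 5.75, 5.91 and 5.88 in MYC+Bmi1, and 5.80 to 6.05 (median 5.92) in MYC arrays. The whole span of Trp63 group means was 0.23 (F test adjusted p 0.358), and its 32 values lay between 5.70 and 6.24. Trp73 was 5.47 to 5.79 (median 5.64) in HRAS+MYC arrays, 5.76 and 5.40 in MYC then HRAS, 5.64 and 5.32 in HRAS then MYC, 5.78 and 5.67 in HRAS+Bmi1, and 5.77, 5.33, 5.26, 5.61 and 5.77 in HRAS arrays. Trp73 without HRAS was 5.73, 5.60, 5.66, 5.62 and 5.54 in MYC+Ezh2, 5.79, 5.62 and 5.81 in MYC+Bmi1, and 5.28 to 6.37 (median 5.64) in MYC arrays. Trp73 means spanned 0.26 (F test adjusted p 0.899), and the highest of its 32 values, 6.37, was in MYC replicate 4. Trp63 passed in 1 setting, HRAS+MYC minus MYC with each array centred on its median, at 0.21 (adjusted p 0.0342).

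The 2 MDM regulators moved in opposite directions with HRAS. Mdm2 was 9.38 to 9.58 (median 9.44) in HRAS+MYC arrays, 9.37 and 9.95 in MYC then HRAS, 9.26 and 9.42 in HRAS then MYC, 9.18 and 8.98 in HRAS+Bmi1, and 9.05, 9.58, 9.43, 9.29 and 9.87 in HRAS arrays. Mdm2 without HRAS was 8.06, 8.83, 8.64, 8.81 and 8.85 in MYC+Ezh2, 8.37, 8.67 and 8.12 in MYC+Bmi1, and 7.86 to 9.11 (median 8.50) in MYC arrays. All 7 HRAS+MYC arrays lay above all 6 MYC arrays, while the HRAS arrays overlapped the MYC arrays through MYC replicate 5 (9.11). Mdm2, whose printed promoter window holds a p53 half-site, was higher by 0.92 ± 0.173 in HRAS minus MYC (1.89-fold, adjusted p 0.000122), by 0.94 ± 0.159 in HRAS+MYC minus MYC (adjusted p 2.90e-05) and by 1.13 ± 0.234 in MYC then HRAS minus MYC (adjusted p 0.000745). The last of these calls was lost without MYC then HRAS replicate 2 (adjusted p 0.0820). Mdm4 was 7.56 to 8.23 (median 7.75) in HRAS+MYC arrays, 7.31 and 7.53 in MYC then HRAS, 7.98 and 8.01 in HRAS then MYC, 7.99 and 7.62 in HRAS+Bmi1, and 7.19, 7.52, 7.82, 7.79 and 7.87 in HRAS arrays. Mdm4 without HRAS was 8.77, 8.49, 8.56, 8.46 and 7.83 in MYC+Ezh2, 8.52, 8.46 and 8.79 in MYC+Bmi1, and 8.13 to 8.75 (median 8.53) in MYC arrays. The 5 HRAS arrays and both MYC then HRAS arrays lay below all 6 MYC arrays, while the highest HRAS+MYC array lay above the lowest MYC array. Mdm4 differed by -0.87 ± 0.150 in HRAS minus MYC (adjusted p 4.16e-05), by -0.67 ± 0.138 in HRAS+MYC minus MYC (adjusted p 0.000335) and by -1.08 ± 0.202 in MYC then HRAS minus MYC (adjusted p 0.000243). Between HRAS+MYC and HRAS cells the differences were 0.02 ± 0.168 for Mdm2 (adjusted p 0.940) and 0.20 ± 0.145 for Mdm4 (adjusted p 0.349), and neither passed.

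**Figure D2:**
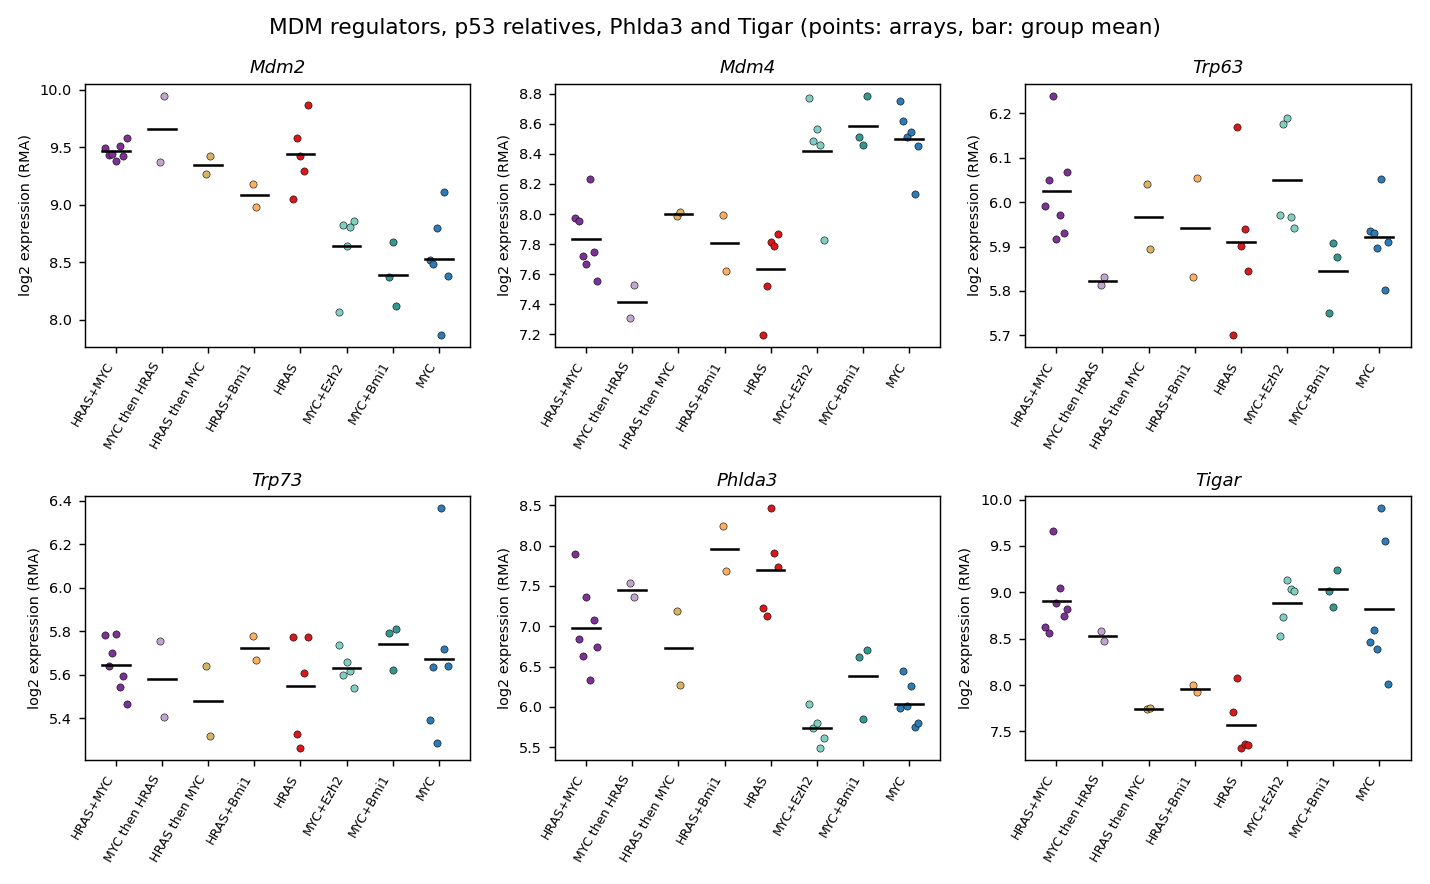
Log2 levels (vertical axes, RMA, not starting at 0) of Mdm2, Mdm4, Trp63, Trp73, Phlda3 and Tigar in the 8 groups, with a point for each array and a bar at the group mean. Mdm2 is higher and Mdm4 lower in the 5 groups with HRAS than in the 3 without it, the means of Trp63 and Trp73 span 0.23 and 0.26, and Tigar has its lowest mean in HRAS cells.

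Of the 8 members with roles in cell cycle and growth arrest, 7 varied across the groups. That is 87.5%, against 49.7% of all genes and 76.0% of those above the median level. Gadd45a, a stress-induced protein that activates stress kinase signalling and whose promoter window holds a p53 half-site, was highest with HRAS alone. Gadd45a was 7.79 to 10.45 (median 9.30) in HRAS+MYC arrays, 9.22 and 8.53 in MYC then HRAS, 11.18 and 10.62 in HRAS then MYC, 10.39 and 10.59 in HRAS+Bmi1, and 11.88, 11.81, 11.33, 11.79 and 11.81 in HRAS arrays. Gadd45a without HRAS was 8.59, 7.26, 8.51, 8.18 and 8.32 in MYC+Ezh2, 8.65, 7.94 and 8.42 in MYC+Bmi1, and 7.50 to 9.36 (median 8.42) in MYC arrays. All 5 HRAS arrays lay above every array of every other group, the closest being 11.18 in HRAS then MYC replicate 1. Gadd45a was higher by 3.32 ± 0.357 in HRAS minus MYC (9.98-fold, adjusted p 2.96e-08). It fell, with a difference of -2.50 ± 0.345 in HRAS+MYC minus HRAS, that is 5.65-fold lower (adjusted p 4.42e-06). HRAS+MYC minus MYC was 0.82 ± 0.328 and did not pass (adjusted p 0.0532), but passed without MYC replicates 4 and 5 at 1.18 (adjusted p 0.00901). It also passed without HRAS+MYC replicate 1 (adjusted p 0.00686) or replicate 2 (0.0330).

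The polo-like kinases Plk2 and Plk3, stress-responsive relatives of the mitotic kinase Plk1, were high in the groups with HRAS. Plk2 was 8.22 to 9.51 (median 9.04) in HRAS+MYC arrays, 8.93 and 9.69 in MYC then HRAS, 9.32 and 10.50 in HRAS then MYC, 10.11 and 10.38 in HRAS+Bmi1, and 9.68, 9.02, 10.74, 9.58 and 9.72 in HRAS arrays. Plk2 without HRAS was 8.21, 8.97, 7.02, 7.12 and 7.09 in MYC+Ezh2, 7.78, 7.67 and 7.29 in MYC+Bmi1, and 5.87 to 8.37 (median 7.34) in MYC arrays. The 5 HRAS arrays and both MYC then HRAS arrays lay above all MYC arrays, the lowest HRAS+MYC array lay below the highest MYC array, and MYC+Ezh2 replicate 2 (8.97) reached into the HRAS+MYC range. Plk2 rose by 2.53 ± 0.412 in HRAS minus MYC (5.78-fold, adjusted p 1.86e-05), by 1.70 ± 0.378 in HRAS+MYC minus MYC (adjusted p 0.000738) and by 2.09 ± 0.555 in MYC then HRAS minus MYC (adjusted p 0.00714). The last was lost without MYC then HRAS replicate 2 (adjusted p 0.166) and in a fit of those 2 groups alone (0.0851). Plk3 was 9.82 to 11.28 (median 10.74) in HRAS+MYC arrays, 9.73 and 10.35 in MYC then HRAS, 8.28 and 8.30 in HRAS then MYC, 9.33 and 9.00 in HRAS+Bmi1, and 9.50, 9.95, 8.03, 9.39 and 10.38 in HRAS arrays. Plk3 without HRAS was 7.25, 7.89, 7.75, 7.16 and 7.85 in MYC+Ezh2, 7.02, 7.74 and 8.41 in MYC+Bmi1, and 6.56 to 7.67 (median 7.22) in MYC arrays. Plk3 was highest in HRAS+MYC cells, and all arrays of HRAS+MYC, MYC then HRAS and HRAS lay above all 6 MYC arrays. It rose by 3.44 ± 0.295 in HRAS+MYC minus MYC (10.8-fold, adjusted p 4.08e-10), by 2.92 ± 0.433 in MYC then HRAS minus MYC (adjusted p 1.42e-05) and by 2.33 ± 0.321 in HRAS minus MYC (adjusted p 1.66e-06). HRAS+MYC minus HRAS was 1.11 ± 0.311 (adjusted p 0.00918), and 0.75 without HRAS replicate 3, where the call was lost (adjusted p 0.0522).

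Btg2, an antiproliferative protein that speeds the decay of messenger RNA, ran the other way. Btg2 was 5.92 to 6.77 (median 6.37) in HRAS+MYC arrays, 6.49 and 6.71 in MYC then HRAS, 6.65 and 5.82 in HRAS then MYC, 6.57 and 6.78 in HRAS+Bmi1, and 7.43, 7.08, 5.83, 6.21 and 7.39 in HRAS arrays. Btg2 without HRAS was 8.91, 8.65, 7.81, 8.38 and 9.12 in MYC+Ezh2, 8.46, 8.32 and 8.06 in MYC+Bmi1, and 7.88 to 9.87 (median 8.69) in MYC arrays. Every array of the 5 groups with HRAS lay below every MYC array. A CRE stood in the promoter windows of Btg2, Plk2 and Trp53inp2, and of these Plk2 was higher and the other 2 were lower in HRAS+MYC than in MYC cells. Btg2 fell, with a difference of -1.89 ± 0.314 in HRAS minus MYC (adjusted p 2.52e-05), of -2.32 ± 0.289 in HRAS+MYC minus MYC (5.00-fold lower, adjusted p 2.79e-07) and of -2.08 ± 0.424 in MYC then HRAS minus MYC (adjusted p 0.000678). Ccng1, the cyclin G1 gene, was called higher in HRAS than MYC cells and lower in HRAS+MYC than HRAS cells. Rprm, a G2 arrest gene, was called lower in HRAS and in HRAS+MYC than in MYC cells, and both calls depended on single arrays. It was lost in HRAS minus MYC when any of HRAS replicates 2, 3 and 5 or MYC replicates 3, 5 and 6 was left out (adjusted p 0.0506 to 0.0896), and in HRAS+MYC minus MYC when MYC replicate 5 or 6 was (0.0688 to 0.0691). Zmat3, which binds RNA and regulates splicing, was called lower in HRAS+MYC and MYC then HRAS cells than in MYC cells. Rprm was also lost in HRAS minus MYC without MYC replicates 4 and 5 (adjusted p 0.0537). Rprm was not called in MYC then HRAS minus MYC. Its HRAS+Bmi1 values, 6.79 and 7.22, lay within the MYC range of 6.33 to 7.50. Both Zmat3 calls and its F test (adjusted p 0.154) were lost without MYC replicates 4 and 5 (adjusted p 0.0892 and 0.0745 for the calls), and the second without MYC then HRAS replicate 1 (0.318). Ckap2, a spindle protein, had group means spanning 0.74 with no call.

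**Figure D3:**
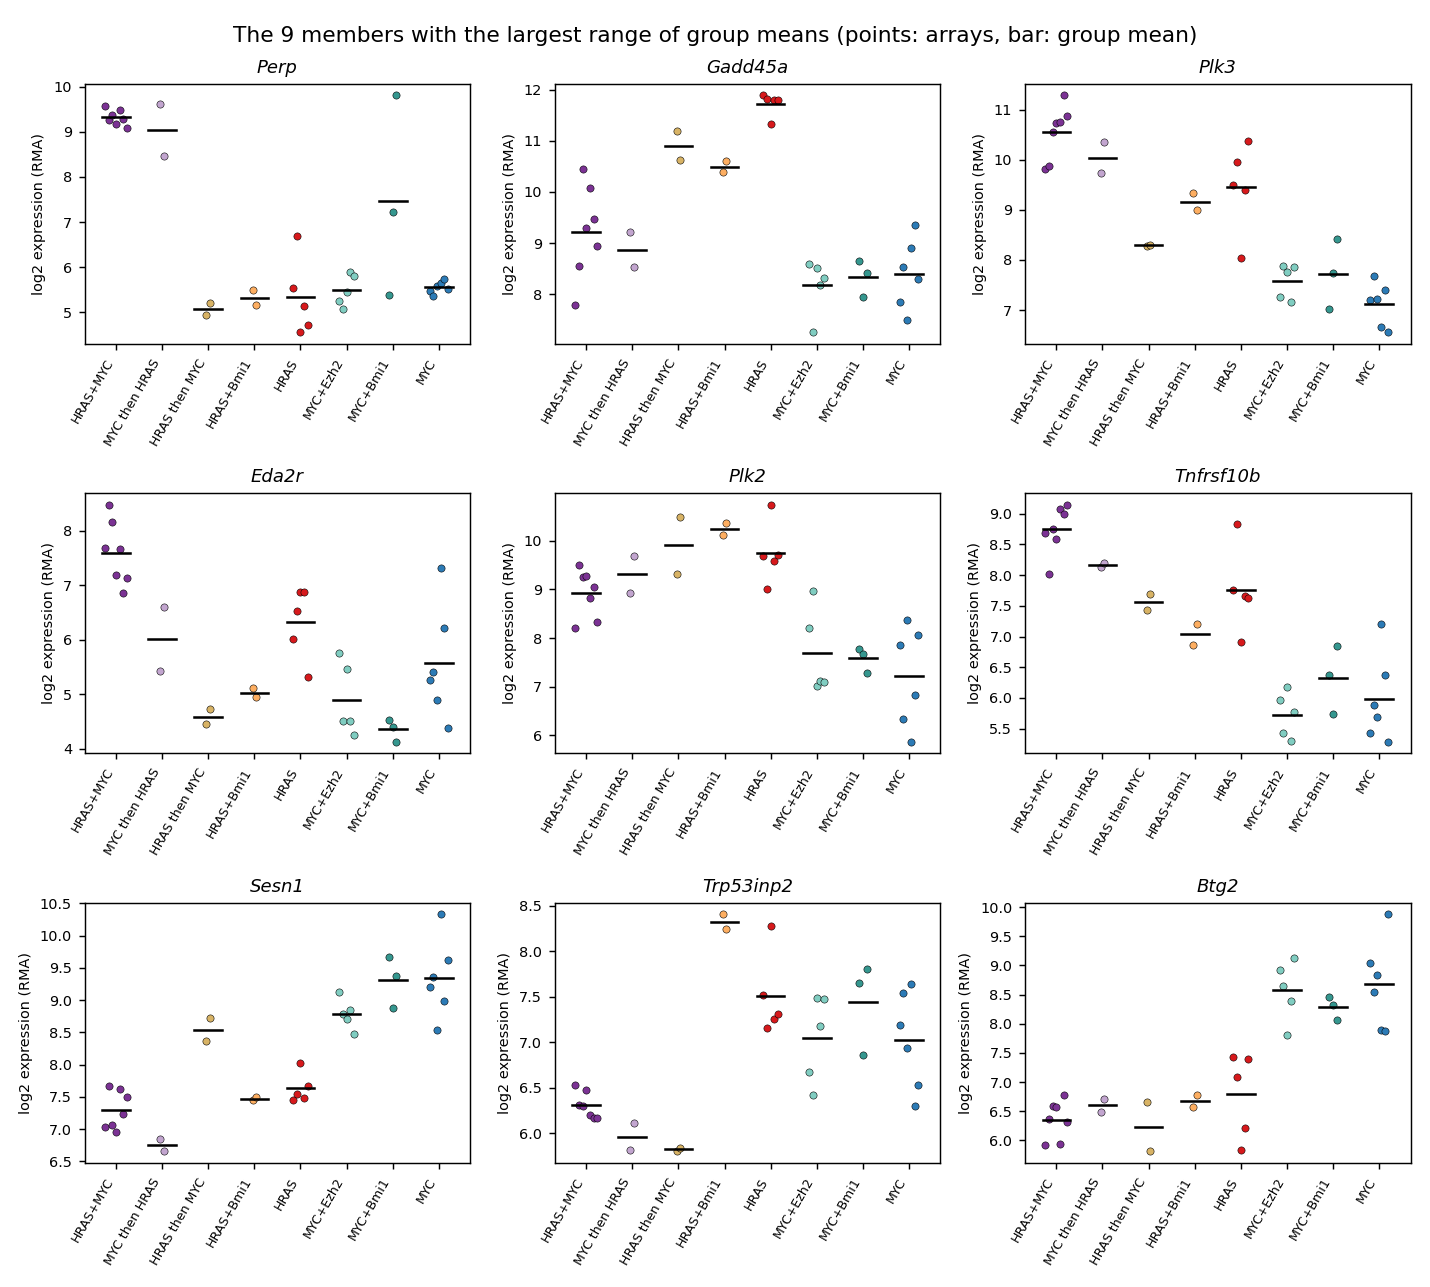
Log2 levels (vertical axes, RMA, not starting at 0) of the 9 members whose group means span the widest range, in the 8 groups, with a point for each array and a bar at the group mean. Perp is high in HRAS+MYC and MYC then HRAS arrays and splits the 3 MYC+Bmi1 arrays, Gadd45a is highest in HRAS arrays, and Sesn1 and Btg2 are lower in HRAS than MYC arrays.

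Of the 12 members with roles in apoptosis, 11 varied across the groups. That is 91.7%, against 49.7% of all genes and 76.0% of those above the median level. Perp encodes a membrane protein of desmosomes, the junctions that join epithelial cells, and is a target of both p53 and p63. Perp was 9.08 to 9.57 (median 9.28) in HRAS+MYC arrays, 9.62 and 8.46 in MYC then HRAS, 4.95 and 5.21 in HRAS then MYC, 5.48 and 5.17 in HRAS+Bmi1, and 5.55, 6.70, 4.56, 5.14 and 4.72 in HRAS arrays. Perp without HRAS was 5.26, 5.08, 5.45, 5.89 and 5.81 in MYC+Ezh2, 5.39, 7.22 and 9.80 in MYC+Bmi1, and 5.37 to 5.73 (median 5.55) in MYC arrays. All 7 HRAS+MYC and both MYC then HRAS arrays lay above every MYC, HRAS, HRAS+Bmi1 and HRAS then MYC array. Perp rose by 3.77 ± 0.406 in HRAS+MYC minus MYC (13.6-fold, adjusted p 2.43e-08), by 3.98 ± 0.427 in HRAS+MYC minus HRAS (adjusted p 1.01e-07) and by 3.49 ± 0.595 in MYC then HRAS minus MYC (adjusted p 8.77e-05). HRAS minus MYC was -0.22 ± 0.441 and did not pass (adjusted p 0.775). Of the groups given the oncogenes one after the other, MYC then HRAS cells had more Perp than HRAS then MYC cells by 3.96 ± 0.729 (adjusted p 0.00122, n = 2 arrays each). The 3 MYC+Bmi1 arrays ranged widely. MYC+Bmi1 minus MYC was 1.92 ± 0.515 (adjusted p 0.123), and 2.96 without MYC+Bmi1 replicate 1, where it passed (adjusted p 0.000634).

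Perp was high in the same 2 groups, HRAS+MYC and MYC then HRAS, as an epithelial and desmosome list of 12 genes that does not hold Perp, and the part of that list in its level was not tested. That list includes the keratins Krt8, Krt18 and Krt19 and the desmosome proteins Dsp and Dsc2. It was chosen with earlier results of these data known, so its counts are a description and not a test. It had 12 of 12 genes up in HRAS+MYC minus MYC, where 15.8% of all genes rose. The median of the list was 3.15, against 0.03 over all genes. Krt19 rose by 6.72 ± 0.261, Krt18 by 5.95 ± 0.566 and Krt8 by 5.34 ± 0.234. In HRAS+MYC minus HRAS 10 rose, against 11.7% of all genes, and in MYC then HRAS minus MYC 9 rose, against 9.83%. In MYC then HRAS minus HRAS then MYC 7 rose, against 1.7% of all genes. In HRAS minus MYC 3 rose (Pkp2, Krt18 and Pkp1), against 15.4% of all genes. The mean level of the list was 8.27 to 9.04 in HRAS+MYC and 8.19 in both MYC then HRAS arrays, against 5.69 to 6.03 in HRAS then MYC, 5.97 to 6.84 in HRAS and 5.19 to 5.66 in MYC arrays. In MYC+Bmi1 arrays the level of Perp and that of the list parted. In MYC+Bmi1 replicate 3 Perp was 9.80 and the list mean 5.59, and in replicate 2 they were 7.22 and 5.51. In MYC+Bmi1 minus MYC no gene of the list passed.

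**Figure D4:**
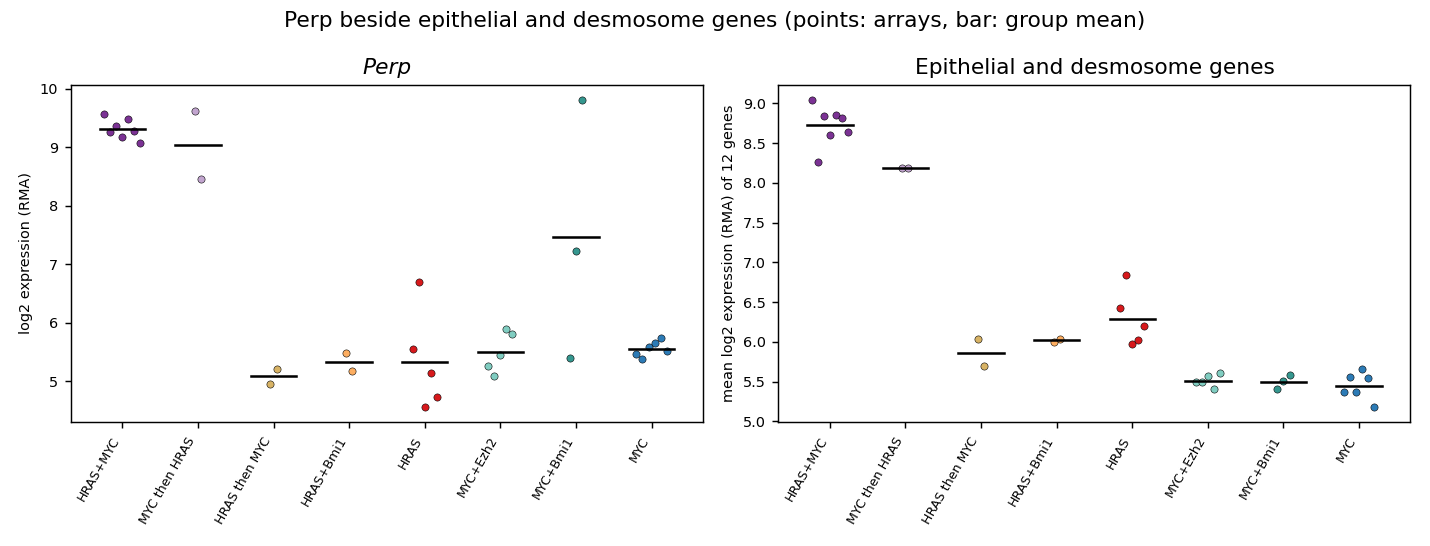
Log2 level of Perp (left, vertical axis, RMA) and mean log2 level of the 12 epithelial and desmosome genes (right, vertical axis) in the 8 groups, with a point for each array, a bar at the group mean and axes that do not start at 0. HRAS+MYC and MYC then HRAS arrays lie highest on the right, while on the left MYC+Bmi1 replicates 2 and 3 also have Perp at 7.22 and 9.80, with list means of 5.51 and 5.59.

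Tnfrsf10b, the mouse receptor for the death ligand TRAIL, was highest in HRAS+MYC cells. Tnfrsf10b was 8.01 to 9.14 (median 8.75) in HRAS+MYC arrays, 8.14 and 8.20 in MYC then HRAS, 7.43 and 7.69 in HRAS then MYC, 6.87 and 7.21 in HRAS+Bmi1, and 7.75, 8.83, 6.91, 7.66 and 7.62 in HRAS arrays. Tnfrsf10b without HRAS was 5.97, 5.43, 6.17, 5.29 and 5.77 in MYC+Ezh2, 6.38, 5.73 and 6.84 in MYC+Bmi1, and 5.29 to 7.20 (median 5.79) in MYC arrays. All HRAS+MYC and MYC then HRAS arrays lay above all MYC arrays, and MYC replicate 4 (7.20) lay above HRAS replicate 3 (6.91). Tnfrsf10b rose by 2.77 ± 0.278 in HRAS+MYC minus MYC (6.84-fold, adjusted p 6.43e-09), by 2.19 ± 0.408 in MYC then HRAS minus MYC (adjusted p 0.000239) and by 1.78 ± 0.302 in HRAS minus MYC (adjusted p 3.31e-05). HRAS+MYC minus HRAS was 1.00 ± 0.292 (adjusted p 0.0125), a call lost without HRAS replicate 3 (adjusted p 0.0587). Eda2r was 6.85 to 8.47 (median 7.67) in HRAS+MYC arrays, 5.43 and 6.60 in MYC then HRAS, 4.45 and 4.73 in HRAS then MYC, 5.11 and 4.94 in HRAS+Bmi1, and 6.01, 6.53, 6.87, 6.87 and 5.32 in HRAS arrays. Eda2r without HRAS was 5.75, 4.51, 5.46, 4.50 and 4.25 in MYC+Ezh2, 4.53, 4.40 and 4.13 in MYC+Bmi1, and 4.38 to 7.31 (median 5.33) in MYC arrays. Eda2r is an X-linked receptor of the TNF receptor family. Its 7 HRAS+MYC values were high, and MYC replicates 4 and 5 lay above the other MYC arrays. Eda2r rose by 2.01 ± 0.370 in HRAS+MYC minus MYC (adjusted p 8.55e-05) and by 1.27 ± 0.390 in HRAS+MYC minus HRAS (adjusted p 0.0167), the second call being lost without HRAS replicate 5 (adjusted p 0.0706). HRAS minus MYC was 0.74 ± 0.403 (adjusted p 0.173), and 1.33 without MYC replicates 4 and 5, where it passed (adjusted p 0.00464).

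Phlda3, which competes with AKT kinase for membrane lipids, was high in the HRAS glioma groups. Phlda3 was 6.33 to 7.90 (median 6.84) in HRAS+MYC arrays, 7.53 and 7.36 in MYC then HRAS, 7.19 and 6.27 in HRAS then MYC, 8.24 and 7.69 in HRAS+Bmi1, and 7.23, 7.13, 8.46, 7.91 and 7.74 in HRAS arrays. Phlda3 without HRAS was 6.04, 5.74, 5.80, 5.49 and 5.62 in MYC+Ezh2, 6.62, 5.84 and 6.70 in MYC+Bmi1, and 5.75 to 6.44 (median 5.99) in MYC arrays. All 5 HRAS and both MYC then HRAS arrays lay above all 6 MYC arrays. Phlda3 rose by 1.66 ± 0.247 in HRAS minus MYC (3.15-fold, adjusted p 5.31e-06), by 1.41 ± 0.333 in MYC then HRAS minus MYC (adjusted p 0.00270) and by 0.95 ± 0.227 in HRAS+MYC minus MYC (adjusted p 0.00157). The call in MYC then HRAS minus MYC was lost without MYC then HRAS replicate 1 (adjusted p 0.0512). HRAS+MYC minus HRAS was -0.71 ± 0.239 (adjusted p 0.0293), a call lost in 6 of the 12 fits without 1 array, at adjusted p 0.0531 to 0.129. Those arrays were HRAS replicates 3, 4 and 5 and HRAS+MYC replicates 3, 5 and 7.

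The other 8 apoptosis members had narrower spans or sharp splits within groups. Pmaip1, the BH3-only protein NOXA, was 6.63, 6.35, 8.26, 9.40 and 8.12 in HRAS arrays against 5.90 to 6.56 (median 6.16) in MYC arrays. It was 6.01 and 5.96 in HRAS then MYC arrays. HRAS minus MYC was 1.56 ± 0.378 (adjusted p 0.00172) although HRAS replicates 1 and 2 lay near the MYC arrays. Trp53inp1, a nuclear stress protein, fell, with a difference of -1.37 ± 0.368 in HRAS+MYC minus HRAS (adjusted p 0.00645), with no overlap between the groups. Without MYC replicates 4 and 5, Trp53inp1 passed at -1.28 in HRAS+MYC minus MYC (adjusted p 0.00743), against -0.86 with all arrays (adjusted p 0.0574), and at -1.49 in MYC then HRAS minus MYC (adjusted p 0.0334). Bbc3, the BH3-only protein PUMA, had group means spanning only 0.74, and with all arrays its 1 call was a higher level in HRAS+MYC than HRAS cells. HRAS minus MYC was -0.25 for Bbc3 (adjusted p 0.0917), and -0.39 without MYC replicates 4 and 5, where it passed (adjusted p 0.00804). It also passed in HRAS then MYC minus HRAS in that setting (0.41, adjusted p 0.0477). Apaf1, the scaffold of the apoptosome, was called higher in HRAS and in HRAS+MYC than in MYC cells. It was not called in MYC then HRAS minus MYC, where the MYC then HRAS arrays were 7.81 and 8.68. Its call in HRAS+MYC minus MYC was lost without MYC replicates 4 and 5 (adjusted p 0.0711). Pidd1, which activates caspase 2, was called lower in all 3 comparisons with MYC cells. In HRAS+MYC minus MYC it was lost without MYC replicate 3 (adjusted p 0.0563) or 4 (0.0709). Without MYC replicates 4 and 5 its difference was -0.29 (adjusted p 0.197), against -0.48 with all arrays. Its call in MYC then HRAS minus MYC was also lost without those 2 arrays (adjusted p 0.163). It was called higher in HRAS+MYC than HRAS cells, a call lost without HRAS replicate 1, 4 or 5 or HRAS+MYC replicate 1 (adjusted p 0.0700 to 0.101). Aen, a nuclease that cuts DNA in apoptosis, was called lower in HRAS than MYC cells and higher in HRAS+MYC than HRAS cells. Ei24, a membrane protein of the endoplasmic reticulum, was called lower in HRAS+MYC cells than in HRAS or MYC cells. Fas, the receptor for FAS ligand, had means spanning 0.38 with no call with all arrays. Its mean over all arrays was 3.72, close to the 10th percentile of gene means (3.635), so a difference could be missed. Without MYC replicate 6 Fas passed in HRAS minus MYC at 0.34 (adjusted p 0.0105).

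Of the 5 DNA repair and nucleotide members, 3 varied across the groups, 60% against 49.7% of all genes and 76.0% of those above the median level. Polk, a polymerase that copies past damaged bases, and Ercc5, the XPG nuclease of nucleotide excision repair, parted in the same arrays. Polk was 7.22 to 8.48 (median 7.73) in HRAS+MYC and 7.35, 7.73, 8.14, 7.72 and 7.65 in HRAS arrays, against 5.88 to 6.73 (median 6.40) in MYC arrays. It rose by 1.49 ± 0.176 in HRAS+MYC minus MYC (2.80-fold, adjusted p 1.28e-07) and by 1.36 ± 0.192 in HRAS minus MYC (adjusted p 2.34e-06). Its rise of 1.01 ± 0.259 in MYC then HRAS minus MYC (adjusted p 0.00560) was lost without MYC then HRAS replicate 2 (adjusted p 0.145). Ercc5 was 7.28 to 7.87 (median 7.57) in HRAS+MYC and 7.40, 7.40, 7.87, 7.80 and 7.74 in HRAS arrays, against 8.06 to 8.71 (median 8.46) in MYC arrays, with no overlap for either. Ercc5 fell, with a difference of -0.83 ± 0.105 in HRAS+MYC minus MYC (adjusted p 3.91e-07), of -0.77 ± 0.114 in HRAS minus MYC (adjusted p 5.11e-06) and of -0.98 ± 0.154 in MYC then HRAS minus MYC (adjusted p 3.07e-05). Xpc, which finds damaged DNA, was called lower in HRAS+MYC and MYC then HRAS cells than in MYC cells, the second call being lost without MYC then HRAS replicate 2 (adjusted p 0.103). Ddb2, which finds ultraviolet damage, had means spanning 1.20, and Rrm2b, a p53-induced subunit of ribonucleotide reductase, had means spanning 0.83, and neither was called with all arrays. Without MYC replicates 4 and 5 Rrm2b passed in HRAS minus MYC at 0.43 (adjusted p 0.0309), against 0.15 with all arrays (adjusted p 0.606), and passed the F test (adjusted p 0.00644). Ercc5 passed in HRAS then MYC minus HRAS in that setting (0.44, adjusted p 0.0439) and without HRAS replicate 3 (0.49, adjusted p 0.0399). It also passed in MYC then HRAS minus HRAS then MYC without MYC replicates 4 and 5 (-0.65, adjusted p 0.0300).

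Of the 6 members with roles in metabolism, autophagy and stress, 4 varied, or 66.7%. The share was 49.7% of all genes and 76.0% of those above the median level. Sesn1, a sestrin that restrains the growth kinase mTORC1 and has a p53 half-site upstream of its second start, was low with HRAS. Sesn1 was 6.96 to 7.66 (median 7.23) in HRAS+MYC arrays, 6.85 and 6.66 in MYC then HRAS, 8.36 and 8.72 in HRAS then MYC, 7.44 and 7.50 in HRAS+Bmi1, and 7.45, 7.54, 8.03, 7.48 and 7.67 in HRAS arrays. Sesn1 without HRAS was 9.13, 8.79, 8.71, 8.85 and 8.47 in MYC+Ezh2, 9.66, 8.88 and 9.37 in MYC+Bmi1, and 8.54 to 10.33 (median 9.29) in MYC arrays. Every array of the 5 groups with HRAS lay below the MYC arrays except HRAS then MYC replicate 2 (8.72), which lay above the lowest MYC array. Sesn1 fell, with a difference of -1.71 ± 0.213 in HRAS minus MYC (adjusted p 3.64e-07), of -2.04 ± 0.196 in HRAS+MYC minus MYC (4.13-fold lower, adjusted p 2.84e-09) and of -2.59 ± 0.287 in MYC then HRAS minus MYC (adjusted p 1.84e-07). Trp53inp2 was 6.17 to 6.54 (median 6.30) in HRAS+MYC arrays, 5.82 and 6.11 in MYC then HRAS, 5.81 and 5.84 in HRAS then MYC, 8.41 and 8.24 in HRAS+Bmi1, and 7.52, 7.16, 8.28, 7.26 and 7.31 in HRAS arrays. Trp53inp2 without HRAS was 6.68, 6.43, 7.48, 7.18 and 7.47 in MYC+Ezh2, 7.65, 6.87 and 7.81 in MYC+Bmi1, and 6.30 to 7.64 (median 7.07) in MYC arrays. Trp53inp2, a protein of autophagosome formation, was lowest in the 3 groups that had both HRAS and MYC, and both HRAS then MYC arrays lay below all HRAS arrays. It fell, with a difference of -1.20 ± 0.226 in HRAS+MYC minus HRAS (adjusted p 0.000238), of -1.68 ± 0.323 in HRAS then MYC minus HRAS (adjusted p 0.000843) and of -0.72 ± 0.215 in HRAS+MYC minus MYC (adjusted p 0.00979). Its difference of -1.06 ± 0.315 in MYC then HRAS minus MYC (adjusted p 0.0162) was lost without either MYC then HRAS array (adjusted p 0.0728 to 0.178).

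Tigar, a phosphatase that lowers glycolytic flux, had its lowest group mean in HRAS cells. It was 8.56 to 9.66 (median 8.82) in HRAS+MYC and 7.71, 8.07, 7.32, 7.37 and 7.36 in HRAS arrays, against 8.01 to 9.90 (median 8.53) in MYC arrays. The 2 highest MYC values, 9.90 and 9.56, were those of replicates 4 and 5. Tigar fell, with a difference of -1.25 ± 0.247 in HRAS minus MYC (adjusted p 0.000196), and of -0.80 without those 2 arrays (adjusted p 0.00138). It rose by 1.34 ± 0.238 in HRAS+MYC minus HRAS (adjusted p 0.000118), with no overlap. HRAS+MYC minus MYC was 0.09 ± 0.227 (adjusted p 0.804), and 0.54 without MYC replicates 4 and 5, where it passed (adjusted p 0.0164). Dram1, a lysosomal protein of autophagy, was called higher in HRAS+MYC and MYC then HRAS cells than in MYC cells. Sesn2, the other sestrin measured, had means spanning 1.26 and Steap3, an iron reductase, had means spanning 1.43, and neither was called.

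The comparison of HRAS glioma cells with MYC PNET cells asked how the members differ between the single oncogenes. Both polo-like kinases, Gadd45a and the death receptor Tnfrsf10b were higher in HRAS than MYC cells, while Btg2, Sesn1, Tigar and Mdm4 were lower. These groups differ in both HRAS and MYC. With all arrays, Gadd45a and Tigar did not pass in HRAS+MYC minus MYC. Of 35 members 18 passed, 10 higher and 8 lower in HRAS cells, against 33.4% of all genes (15.4% higher and 18% lower). Of those that passed, the largest rises were Gadd45a (3.32), Plk2 (2.53) and Plk3 (2.33), and the largest falls Btg2 (-1.89), Sesn1 (-1.71) and Tigar (-1.25). By role, 6 of the 8 arrest members (4 higher), 6 of the 12 apoptosis members (4 higher), 2 of the 5 repair members (1 higher) and 2 of the 6 metabolism members (0 higher) passed. The median member differed by 0.15 and the median gene by -0.03. Among genes above the median level, 20 of 30 members passed, 66.7% against 54.7% of all such genes. Dram1 passed in that setting and when any of HRAS replicates 3 and 4 or MYC replicates 4 and 5 was left out (adjusted p 0.0298 to 0.0471), and at 0.85 without MYC replicates 4 and 5 together (adjusted p 0.0168).

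HRAS+MYC cells differed from MYC cells in Perp, Plk3, Tnfrsf10b, Btg2 and Sesn1, and from HRAS cells in Perp, Gadd45a and Tigar. Against MYC cells 20 members passed, 10 higher and 10 lower, against 34.2% of all genes (15.8% higher and 18.4% lower). Perp (3.77), Plk3 (3.44) and Tnfrsf10b (2.77) rose most, and Btg2 (-2.32), Sesn1 (-2.04) and Ercc5 (-0.83) fell most of those that passed. The median was 0.06 for members and 0.03 for all genes. Above the median level 70% of members passed, against 50.5% of such genes. Against HRAS cells 14 members passed, 8 higher and 6 lower, against 24.7% of all genes (11.7% higher and 13% lower). Perp (3.98), Tigar (1.34) and Eda2r (1.27) rose most, and Gadd45a (-2.50), Trp53inp1 (-1.37) and Trp53inp2 (-1.20) fell most of those that passed. The median was -0.02 for members and 0.05 for all genes. Above the median level 43.3% of members passed, against 39.6% of such genes. By role, 9 of the 12 apoptosis members and none of the 5 repair members passed against HRAS cells.

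**Figure D5:**
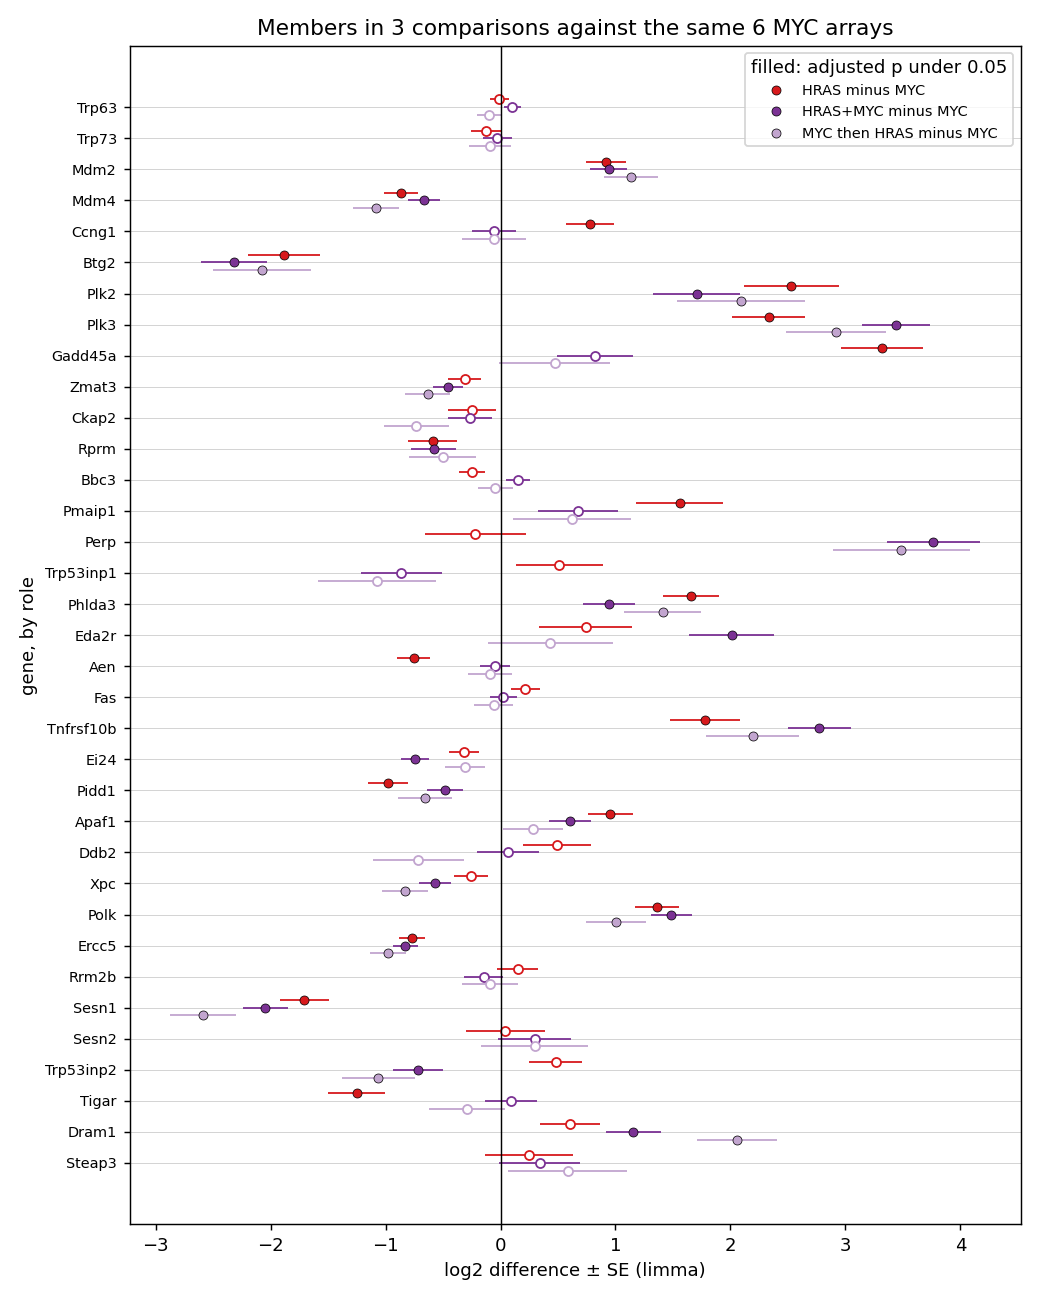
Log2 difference from the 6 MYC arrays (horizontal axis, limma estimate ± SE) of each of the 35 members (vertical axis, by role) in HRAS, HRAS+MYC and MYC then HRAS cells, with filled points for adjusted p under 0.05. The 3 comparisons share the MYC arrays. Perp is filled in HRAS+MYC and MYC then HRAS only, and Gadd45a in HRAS only.

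In cells of secondary tumours, Perp, Plk3 and Tnfrsf10b were higher when HRAS had been added to MYC tumour cells. The MYC cells were not from secondary tumours. The added HRAS and the second round of tumour growth therefore cannot be told apart. In MYC then HRAS minus MYC 16 members passed, 8 higher and 8 lower, against 20.4% of all genes (9.83% higher and 10.6% lower). Perp (3.49), Plk3 (2.92) and Tnfrsf10b (2.19) rose most, and Sesn1 (-2.59), Btg2 (-2.08) and Mdm4 (-1.08) fell most of those that passed. With 2 arrays in the group, 6 calls were lost without MYC then HRAS replicate 2 (Mdm2, Plk2, Polk, Xpc, Pidd1 and Trp53inp2), which left 10. Above the median level 56.7% of members passed, against 34.2% of such genes.

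MYC added to HRAS glioma cells went with fewer calls. The HRAS cells were not from secondary tumours, so the added MYC and the second round of tumour growth cannot be told apart. In HRAS then MYC minus HRAS 5 members passed, 1 higher and 4 lower, against 12.5% of all genes (6.3% higher and 6.21% lower), a share of 14.3% near the background. Above the median level 16.7% of members passed, against 23.8% of such genes. Sesn1 rose by 0.91 ± 0.294 (adjusted p 0.0416), and Pmaip1 fell, with a difference of -1.76 ± 0.522 (adjusted p 0.0242), Eda2r of -1.73 ± 0.557 (adjusted p 0.0394) and Trp53inp2 of -1.68 ± 0.323 (adjusted p 0.000843). Apaf1 was the other member called lower. The Sesn1, Pmaip1, Eda2r and Apaf1 calls were each lost without HRAS then MYC replicate 1 or 2, at adjusted p 0.107 and 0.399 for Sesn1. They were 0.146 and 0.203 for Pmaip1, 0.252 and 0.195 for Eda2r, and 0.249 and 0.143 for Apaf1. The same calls were also lost without some HRAS arrays, namely replicates 1, 2, 4 and 5 for Sesn1, 2, 3 and 4 for Eda2r, 1 and 2 for Apaf1, and 4 for Pmaip1. Between the 2 secondary groups, Perp was higher (3.96 ± 0.729) and Sesn1 lower (-1.79 ± 0.352, adjusted p 0.00264) in MYC then HRAS than HRAS then MYC cells, 2 of 35 members against 3.28% of all genes (1.7% higher and 1.58% lower). The Sesn1 call was lost without MYC then HRAS replicate 2 (adjusted p 0.0582) or HRAS then MYC replicate 2 (0.0855). Plk3 was gained in HRAS then MYC minus HRAS without HRAS replicate 3 (-1.51, adjusted p 0.00812), and the Eda2r call was lost (-1.60, adjusted p 0.0687). Gadd45a differed by -2.03 ± 0.589 in MYC then HRAS minus HRAS then MYC (adjusted p 0.0551), and passed in 4 of the other settings tried. One of these left out MYC replicates 4 and 5 (adjusted p 0.0314).

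Ezh2 and Bmi1 encode Polycomb proteins, which keep genes silent through chromatin. No member passed between MYC cells with and without either gene. In limma, 0 of 35 members passed in MYC+Ezh2 minus MYC, where 3 had an unadjusted p under 0.05 and the lowest adjusted p was 0.343, against 0.246% of all genes (0.13% higher and 0.115% lower). In MYC+Bmi1 minus MYC 0 passed, 3 had an unadjusted p under 0.05 and the lowest adjusted p was 0.123, that of Perp, against 0.15% of all genes (0.1% higher and 0.0502% lower). In HRAS+Bmi1 minus HRAS 2 members passed, both higher, against 5.91% of all genes (2.87% higher and 3.04% lower). Aen rose by 0.66 ± 0.199 (adjusted p 0.0454) and Ei24 by 0.59 ± 0.180 (adjusted p 0.0480). Each was lost without either HRAS+Bmi1 array, Aen at adjusted p 0.431 and 0.198 and Ei24 at 0.460 and 0.195. Aen was also lost without HRAS replicate 1, 4 or 5 and Ei24 without HRAS replicate 2, 3, 4 or 5. Trp53inp2 (1.01, adjusted p 0.0369) and Pidd1 (0.71, adjusted p 0.0490) passed without HRAS replicate 3. In a fit of the HRAS+Bmi1 and HRAS arrays alone Aen and Ei24 were both lost, and Gadd45a passed instead (-1.23, adjusted p 0.0155). The test of whether the Bmi1 effect differed between HRAS and MYC cells passed for 0 members, with 4 at an unadjusted p under 0.05 and a lowest adjusted p of 0.167, against 2.43% of all genes (1.33% with a positive and 1.1% with a negative difference). Without MYC+Bmi1 replicate 1 Perp passed that test at -2.96 (adjusted p 0.0113).

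Other genes of the pathway were read from lists that hold no member. Cdkn1a, which encodes the cell cycle inhibitor p21, and Rpl11 were not analysed here. Of 17 regulators upstream of p53, 2 rose and 6 fell in HRAS minus MYC, 1 rose and 4 fell in HRAS+MYC minus MYC, and 1 rose and 2 fell in HRAS+MYC minus HRAS. The shares called were 47.1%, 29.4% and 17.6%, against 33.4%, 34.2% and 24.7% of all genes, so those in the comparisons with HRAS+MYC cells lay below the background. Cdkn2a, the locus of p16INK4A and ARF, rose by 1.84 ± 0.154 in HRAS minus MYC and by 1.38 ± 0.141 in HRAS+MYC minus MYC. Chek1, the checkpoint kinase, fell, with differences of -1.42 ± 0.206 and -0.66 ± 0.189 in the same comparisons. Of 18 further p53 targets, 6 rose and 4 fell in HRAS minus MYC, 4 and 4 in HRAS+MYC minus MYC, and 4 and 7 in HRAS+MYC minus HRAS, shares of 55.6%, 44.4% and 61.1%. The receptor kinase Epha2 rose by 4.87 ± 0.224 in HRAS minus MYC and by 5.57 ± 0.206 in HRAS+MYC minus MYC. The tetraspanin Cd82 fell, with a difference of -3.16 ± 0.444 and the sulfatase Sulf2 of -3.48 ± 0.553 in HRAS+MYC minus HRAS. The median change of the further targets was 0.44, -0.01 and -0.31 in the 3 comparisons, against -0.03, 0.03 and 0.05 over all genes.

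Lists of immediate early genes, ATF4 and stress genes, and proliferation genes were read in the same comparisons. Their part in the members' differences was not tested. The background shares are 33.4% of all genes in HRAS minus MYC, 34.2% in HRAS+MYC minus MYC and 24.7% in HRAS+MYC minus HRAS. Of 12 immediate early genes, which answer to MAP kinase signalling, 9 rose and 0 fell in HRAS minus MYC and 7 rose and 0 fell in HRAS+MYC minus MYC, shares of 75% and 58.3%. The list also holds Myc, which was itself given to some groups and whose mouse probe set was higher in HRAS than MYC cells. HRAS cells were not given MYC, so their level of that probe set does not come from a MYC transgene. Whether it reads the transgene in the groups given MYC is not known, so the counts are not of MAP kinase response alone. In MYC then HRAS minus MYC 5 rose, in HRAS+MYC minus HRAS 3 rose and 3 fell, and in HRAS then MYC minus HRAS 5 fell. Fosl1, an AP-1 subunit, rose by 4.48 ± 0.169 in HRAS minus MYC and by 4.33 ± 0.155 in HRAS+MYC minus MYC, and Ier3 by 3.96 ± 0.274 and 4.83 ± 0.252. Of 12 ATF4 and stress genes, which share Atf3 with the immediate early list, 6 rose and 1 fell in HRAS minus MYC, 7 rose and 1 fell in HRAS+MYC minus MYC, and 4 rose in HRAS+MYC minus HRAS, shares of 58.3%, 66.7% and 33.3%. The cystine transporter Slc7a11 rose by 2.03 ± 0.488 and 4.07 ± 0.449 against MYC cells. Of 9 proliferation genes, 4 fell in HRAS minus MYC, 2 rose and 1 fell in HRAS+MYC minus MYC, and 3 rose in HRAS+MYC minus HRAS, shares of 44.4%, 33.3% and 33.3%. The mean level of that list was 10.58 in HRAS replicate 3, against 9.88 to 9.99 in the other HRAS arrays, and 9.52 in MYC replicate 6, against 10.53 to 10.85 in the other MYC arrays. Rrm2, a subunit of ribonucleotide reductase, was -1.31 ± 0.238 in HRAS minus MYC and 1.68 ± 0.231 in HRAS+MYC minus HRAS.

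Cell type lists were read in the comparisons of HRAS and HRAS+MYC cells with MYC cells, where 33.4% and 34.2% of all genes passed, and their part in the members' differences was not tested. The neuronal list (83.3% and 100%) and the neural stem list (71.4% in both) lay above those shares. So did the astrocyte list (60% and 40%) and the oligodendrocyte list (40% in both), each of 5 genes. The microglia list (25% and 12.5%) and the endothelial list (28.6% and 0%) lay below them. Of 6 neuronal genes 5 fell in HRAS minus MYC, and 1 rose and 5 fell in HRAS+MYC minus MYC. Map2, a neuronal microtubule protein, fell, with differences of -4.34 ± 0.560 and -5.51 ± 0.515. Of 7 neural stem and progenitor genes 2 rose and 3 fell in HRAS minus MYC, and 1 rose and 4 fell in HRAS+MYC minus MYC. Of 5 astrocyte genes 2 rose and 1 fell in HRAS minus MYC, and 1 rose and 1 fell in HRAS+MYC minus MYC. Of 5 oligodendrocyte genes 2 fell in HRAS minus MYC and 2 in HRAS+MYC minus MYC. Of 8 microglia and macrophage genes 1 rose and 1 fell in HRAS minus MYC and 1 rose in HRAS+MYC minus MYC, the riser being Cd68 in both (3.13 ± 0.499 and 3.60 ± 0.458). Of 7 endothelial and pericyte genes 2 rose in HRAS minus MYC and 0 in HRAS+MYC minus MYC.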

How the data were processed

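RNA from 32 tumour-derived neurosphere cultures was measured, 1 Mouse Gene 1.0 ST array each. The authors deposited log2 levels. The submitters' processing notes name RMA and Affymetrix Expression Console 1.0. The RMA method corrects background, equalises array distributions and summarises probes, which hides global shifts and compresses dim genes. Of 35557 probe sets, 21789 carried 1 symbol, 1621 several and 12147 were not listed in the platform annotation. For 999 genes with several probe sets the one with the highest mean was kept, leaving 19938 genes. Of the single-symbol probe sets 99.58% were found in RefSeq. Array medians ran from 5.59 to 5.79, 0 pairs of arrays were identical, and array number limits the precision.

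Group means were fitted with limma 3.58.1 in R 4.3.3 on all 32 arrays, with 9 pairwise comparisons, 1 interaction and 1 F test, adjusted by Benjamini-Hochberg over all genes. The code was tested on simulated data. Over 385 member tests there were 104 calls. Described in full were Trp63, Trp73, Mdm2, Mdm4 and the 10 members with the widest range of group means among those passing the F test, and for each comparison the 3 largest rises and falls. The lists added were p53 upstream regulators, further p53 targets, ATF4 and stress genes, immediate early genes, proliferation genes, epithelial and desmosome genes, and markers of neural stem cells, neurons, astrocytes, oligodendrocytes, microglia and endothelium. Members and lists were chosen with earlier results of these data known. Alternatives were array centring, repeated quantile normalization, mean of probe sets, genes above the median level, an intensity trend, the replicate number as a block, a fit of the groups compared alone, leaving out MYC replicates 4 and 5, and leaving out each array. Promoter windows came from RefSeq on GRCm38.p6. Tables were handled in Python 3.11.15 with pandas 2.3.3, and plots drawn with matplotlib 3.10.9. Trp53, Bax, Gdf15, Fdxr, Hras, Cdkn1a, Rpl11 and Ccnb1 were not analysed here.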

Additional observations from a re-analysis of the deposited data

Results flagged for a closer look

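In 8 of 140 member and group combinations of 4 to 10 arrays, 1 array lay far from the rest of its group by Dixon's gap ratio, against 7.0 that chance would give at 1 in 20. Mdm2 was 8.06 in MYC+Ezh2 replicate 1 and 8.64 to 8.85 in the other MYC+Ezh2 arrays. Gadd45a was 11.33 in HRAS replicate 3 and 11.79 to 11.88 in the other HRAS arrays, and Rrm2b was 8.33 in that array and 7.57 to 7.77 in the others. Ei24 was 9.12 in HRAS+MYC replicate 1 and 8.46 to 8.69 in the other HRAS+MYC arrays, and Pidd1 was 6.79 in that array and 6.19 to 6.42 in the others. Fas was 4.33 in MYC replicate 6 and 3.47 to 3.72 in the other MYC arrays. Xpc was 8.48 in MYC replicate 4 and 7.60 to 7.92 in the other MYC arrays. Ercc5 was 8.57 in MYC+Ezh2 replicate 2 and 8.40 to 8.45 in the other MYC+Ezh2 arrays.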

How the results depend on the processing

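No difference of a called member changed sign under any alternative tried. Without 1 array, the number of members called ran from 17 to 21 in HRAS minus MYC (18 as reported), from 19 to 21 in HRAS+MYC minus MYC (20), from 11 to 15 in HRAS+MYC minus HRAS (14), from 25 to 27 in the F test (27), from 10 to 17 in MYC then HRAS minus MYC (16), from 1 to 6 in HRAS then MYC minus HRAS (5), from 0 to 3 in HRAS+Bmi1 minus HRAS (2) and from 1 to 2 in MYC then HRAS minus HRAS then MYC (2). It ran from 0 to 1 in MYC+Bmi1 minus MYC and in the Bmi1 interaction (0 in both), and was 0 throughout in MYC+Ezh2 minus MYC. Where leaving out an array left a group with 1 array, that array was assumed to vary like the other groups. In HRAS+Bmi1 minus HRAS the count was 0 with arrays centred, 0 with an intensity trend, 0 with the replicate block and 1 in a fit of the 2 groups alone, where Gadd45a passed and neither reported call did. In HRAS then MYC minus HRAS it was 3 with the replicate block and 3 in a fit of the 2 groups alone. In MYC then HRAS minus HRAS then MYC it was 4 with arrays centred, 5 among genes above the median level, 4 without MYC replicates 4 and 5, and 4 in a fit of the 2 groups alone. The cause was not tested. Same-numbered arrays did not deviate together in all pairs of any comparison between groups with 3 or more pairs (r from -0.26 to 0.343), so the numbers were not taken as pairs, and other counts under the replicate block stayed within 1.5 times the reported ones.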
